A study of Mus musculus with 35 samples.

Results

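The comparison described here sets 5 mouse livers taken after 200 mg/kg of SP300, the largest of the silica particles in the study, against 5 livers taken after 10 mg/kg of the same particle. These are 10 of the 35 arrays of the series, chosen by the particle and dose in their titles, and no measured value entered the choice. The mice were of the strain BALB/c, with their age and sex not given in the sources used here. They were assigned to groups at random, injected once into a vein and killed 6 h later, and a piece of the left lateral lobe of each liver was frozen for total RNA. The control group of 5 mice received deionized water, the vehicle, and SP70, a smaller silica particle, was given to further groups of 5 at 40 and 10 mg/kg. The rest of the 35 arrays came from 5 mice given SP70 at 20 mg/kg and 5 given SP30, another silica particle, at 10 mg/kg. These mice entered the fit over all 35 arrays but none of the group comparisons below. The design text names 200 mg/kg of SP300 and 40 mg/kg of SP70 as toxic doses, set from earlier histology and serum chemistry. At 10 mg/kg the particles were compared at an equal dose. With 2 doses of SP300 no shape of a dose response can be read, and a single time point shows no order of events.

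Silica particles in the blood are cleared largely by the liver, where Kupffer cells, the macrophages that line the sinusoids, take up foreign material beside the endothelial cells that form the sinusoid wall. Activated macrophages release cytokines and chemokines, which draw neutrophils and monocytes from the blood. Hepatocytes answer such cytokines with the acute phase response, a change in the plasma proteins they secrete, while many of their metabolic genes are turned down.

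Signals are MAS5 values, brightnesses per probe set in arbitrary units, and a gene is represented by 1 probe set. Differences are log2 differences, 200 minus 10 mg/kg, with the standard error (SE) of a limma fit over all 35 arrays, and a gene passed where its Benjamini-Hochberg adjusted p was under 0.05. No detection or saturation call comes with the values. If any of the 5 mice with the smaller signals lay under 165, the filter on low values, the fold is given as "at least" and is computed from signals raised to 165. The log2 value of such a gene depends on the pseudocount of 12.5 and is no bound. The median signal of an array was 151 to 166 at 200 mg/kg and 159 to 172 at 10 mg/kg, and the lowest correlation between arrays of a group, across probe sets, was 0.96 in both. On the first principal component of all arrays, which held 33.0% of the variance, the livers scored -2.46 to 10.3 at 200 mg/kg and -51.0 to -44.4 at 10 mg/kg, with no array apart from its group. The defining hepatocyte transcripts of the tissue label were bright. Albumin (Alb) averaged 64352 ± 5037 at 200 mg/kg and 73860 ± 9155 at 10 mg/kg (SD, n = 5 each), and the transport protein Ttr averaged 74636 at 200 mg/kg and 81960 at 10 mg/kg.

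Of 12678 genes tested, 4015 (31.7%) differed between the doses. At 200 mg/kg 1189 genes (9.38%) were higher and 2826 (22.3%) were lower. A 2-fold difference was reached by 276 of the higher and 334 of the lower genes. The median of all genes was -0.11, and this surplus of lower genes depended on the scale between arrays. After each array was centred on its median, 1780 genes (14%) were higher and 1847 (14.6%) lower, with a median of -0.01. Quantile normalization gave 1816 higher (14.3%) and 1859 lower (14.7%). The medians of gene lists below are therefore those of centred arrays, to be read against -0.01 for all genes. Counts are given on both scales where they differ, and are to be read against these shares of all genes. In 730 genes (5.76%) all 5 mice at 200 mg/kg lay above all 5 at 10 mg/kg, and in 1850 (14.6%) all lay below.

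**Figure D1:**
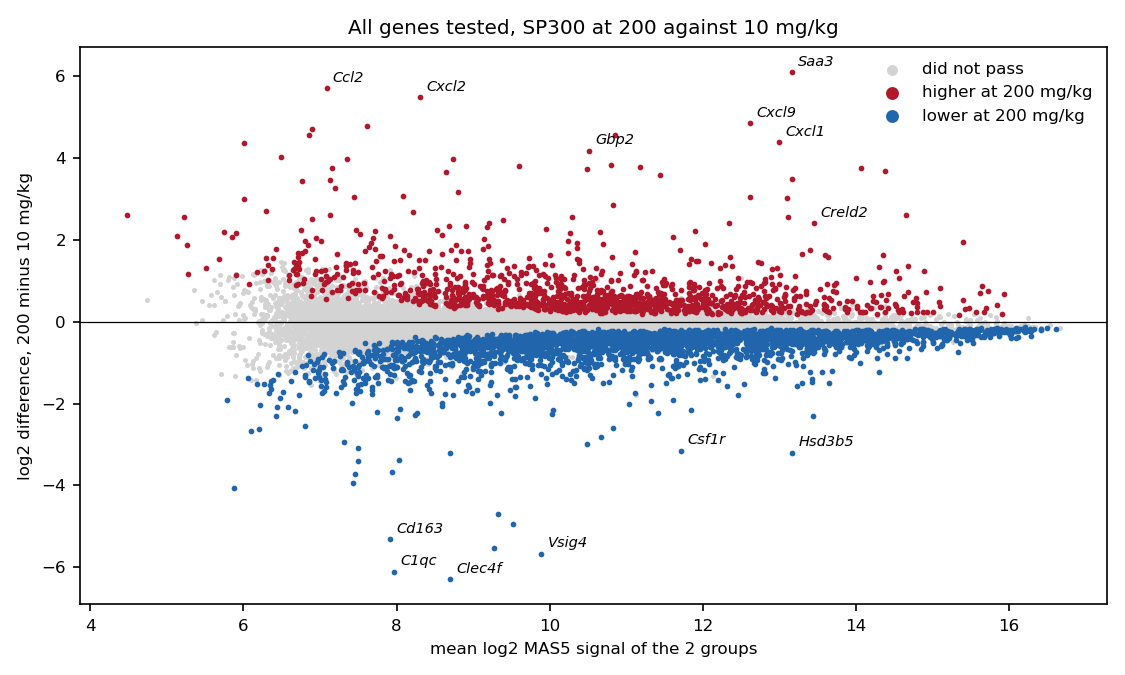
Each point is 1 of the 12678 genes, with the mean log2 signal of both SP300 groups on the horizontal axis and the log2 difference, 200 minus 10 mg/kg, on the vertical axis. The 1189 higher genes are red, the 2826 lower genes blue and genes that did not pass grey, with Saa3 (6.10) at the top and Clec4f (-6.29) at the bottom.

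The lowest values belonged to genes of resident macrophages. Clec4f, a galactose-binding lectin found in mice on Kupffer cells, had signals of 21.2, 127, 13.6, 43.5 and 22.4 in the mice at 200 mg/kg, against 3470, 4590, 3528, 3562 and 3422 in those at 10 mg/kg. The groups did not overlap, and no mouse at the higher dose reached the filter. The gene fell at least 22.4-fold (log2 difference -6.29 ± 0.47, adjusted p = 1.49e-12 in limma). Vsig4, a complement receptor by which Kupffer cells capture particles from the blood, had 153, 178, 128, 230 and 15.5 at 200 mg/kg, against 5165, 7590, 6432, 6345 and 6343 at 10 mg/kg. It fell at least 35.4-fold (-5.67 ± 0.47, adjusted p = 1.14e-11). Csf1r, the receptor for the macrophage growth factor, stayed above the filter in all mice, so that its fold is not a bound. Its signals were 1148, 1062, 1051, 1278 and 1089 at 200 mg/kg, against 8530, 11505, 9566, 10603 and 10372 at 10 mg/kg. That is 8.96-fold lower at 200 mg/kg, with the narrowest spread of these markers (-3.15 ± 0.13, adjusted p = 1.57e-19).

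All 3 chains of C1q, the first complement component, which macrophages make, fell together. C1qc averaged 24.4 ± 10.9 at 200 mg/kg and 2470 ± 426 at 10 mg/kg (SD, n = 5 each; at least 14.8-fold lower). C1qa fell at least 25.7-fold (-5.53 ± 0.41) and C1qb at least 20.7-fold (-4.71 ± 0.48). Cd163, the scavenger receptor for haemoglobin bound to haptoglobin, fell at least 9.7-fold (-5.31 ± 0.40), and Cd5l, a secreted scavenger protein of tissue macrophages, at least 24.9-fold (-4.95 ± 0.29). Timd4, a receptor for phosphatidylserine on dying cells, fell at least 2.07-fold and had signals of 3.15 to 13.4 at 200 mg/kg, against 235 to 408 at 10 mg/kg. Others among the 15 lowest genes were Folr2, a folate receptor of macrophages (-3.38 ± 0.45), Adgre4 (-3.72 ± 0.35), Treml4 (-3.95 ± 0.30), Adamdec1 (-3.69 ± 0.33), Fabp7 (-3.40 ± 0.51) and Cfp, properdin of the alternative complement pathway (-3.22 ± 0.27). At the higher dose all 5 mice were below the filter for each of these but Cfp, for which 3 were. A second probe set of Cfp did not pass and stood at 0.01.

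Of 22 Kupffer cell and macrophage markers tested, 18 fell and 1 was higher, against 22.3% and 9.38% of all genes. Their median was -2.0, and 17 fell on centred arrays. The exception was Mpeg1, a pore-forming protein of phagocytes, with 9628 ± 1547 at 200 mg/kg and 6667 ± 1507 at 10 mg/kg (0.55 ± 0.16, adjusted p = 0.00838), where 1 mouse at the higher dose lay below the highest at the lower dose. Lyz2, the lysozyme shared by macrophages, monocytes and neutrophils, averaged 3614 ± 542 at 200 mg/kg and 4087 ± 707 at 10 mg/kg, and did not pass (adjusted p = 0.492). Hmox1, which breaks down haem, did not pass either, at 798 ± 219 at 200 mg/kg and 821 ± 204 at 10 mg/kg. Slc40a1, ferroportin, the iron exporter of Kupffer cells and hepatocytes, fell 2.82-fold (-1.49 ± 0.18). In bulk tissue, fewer cells of a type and less RNA per cell cannot be told apart.

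Sinusoidal endothelial genes fell by less. Clec4g, a lectin of these cells, had 1590, 3283, 4060, 3693 and 2935 at 200 mg/kg, against 9774, 10728, 10468, 10600 and 9655 at 10 mg/kg. All 5 livers at the higher dose lay below all 5 at the lower dose (3.45-fold, -1.78 ± 0.26, adjusted p = 1.85e-06). Kdr, the main receptor for the growth factor VEGFA, averaged 934 ± 171 at 200 mg/kg and 2435 ± 389 at 10 mg/kg (-1.38 ± 0.21). Ptprb, a receptor phosphatase of endothelium (-1.38 ± 0.15), Fcgr2b, an Fc receptor that clears immune complexes (-1.25 ± 0.21), and Bmp2, a signal to hepatocytes for hepcidin (-1.48 ± 0.21), also fell. Of 26 endothelial markers, 15 fell and 1 was higher, with a median of -0.50, and on centred arrays 14 fell and 2 were higher. Pecam1, Flt1 and Plvap did not pass.

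Lyve1, the hyaluronan receptor of sinusoids and lymphatics, went the other way, with 749, 3724, 4213, 4201 and 5440 at 200 mg/kg, against 1927, 956, 878, 1198 and 1849 at 10 mg/kg. Mouse 1 at the higher dose was the lowest of all 10, and the other 4 lay above every mouse at the lower dose (1.24 ± 0.42, adjusted p = 0.0211). The same mouse was also the lowest of its group for Clec4g, Kdr, Ptprb, Bmp2 and Stab2. Without that mouse Lyve1 stood at 1.74 (adjusted p = 0.000371). The call was lost when mouse 3, 4 or 5 at the higher dose or mouse 2 or 3 at the lower dose was left out, with adjusted p of 0.0542 to 0.0738.

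**Figure D2:**
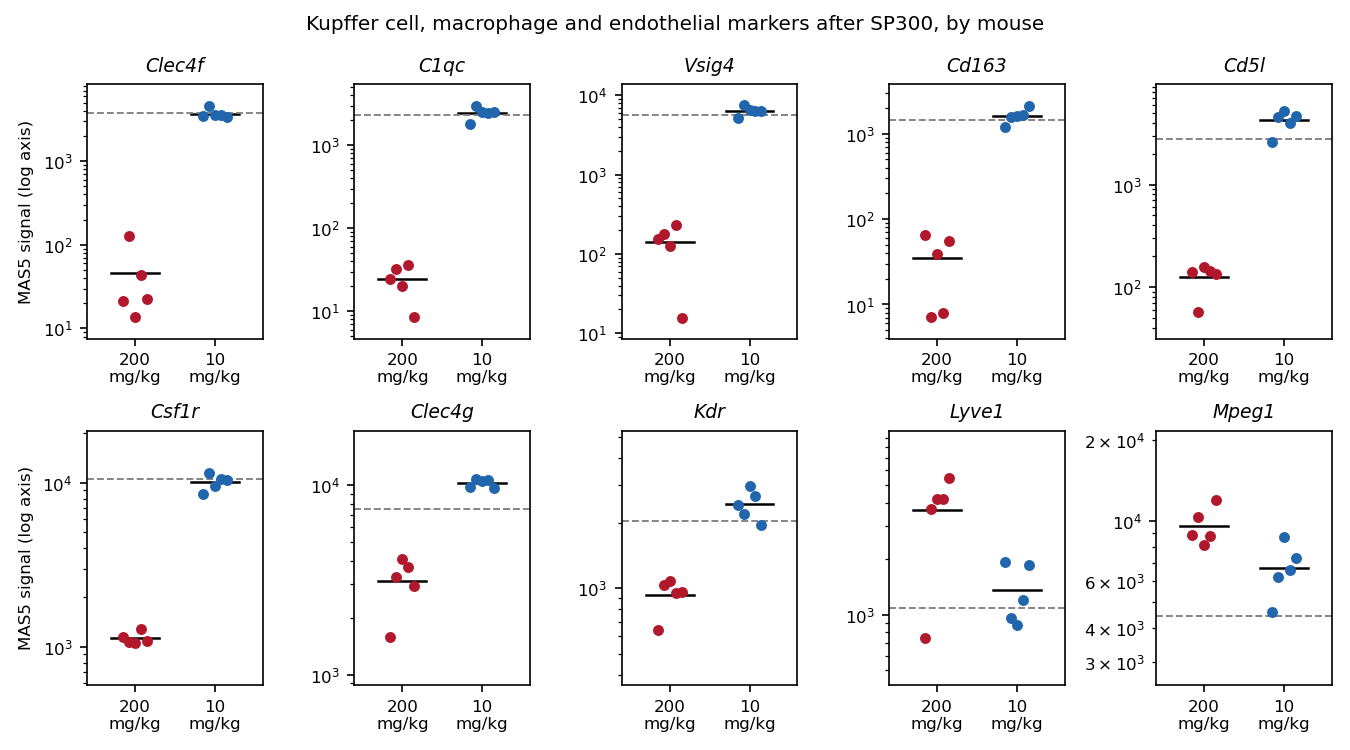
MAS5 signals (log axis) of 10 marker genes in each liver, 200 mg/kg in red on the left and 10 mg/kg in blue on the right, with black bars at the group means and a dashed line at the control mean. Clec4f, C1qc, Vsig4, Cd163, Cd5l, Csf1r, Clec4g and Kdr do not overlap between the doses, and Lyve1 and Mpeg1 are higher at 200 mg/kg with overlap.

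The highest log2 difference at the pseudocount used was that of Saa3, a serum amyloid A that hepatocytes and macrophages make in the acute phase. Its signals were 81843, 80834, 68768, 69971 and 77783 at 200 mg/kg, against 1447, 1176, 1107, 1014 and 804 at 10 mg/kg. The groups were far apart, and Saa3 was 69.4-fold higher at 200 mg/kg (6.10 ± 0.12, adjusted p = 1.3e-29). Signals of this size are near the upper end of the arrays, whose brightest probe sets reached 104405 to 136014, and whether they were saturated was not tested. Saa2, another serum amyloid A, was 13.6-fold higher (3.76 ± 0.25), with a wide spread at the lower dose, where the mice ran from 1569 to 9775. Lcn2, which binds bacterial siderophores, was 12.9-fold higher, at 73402 ± 3557 at 200 mg/kg and 6180 ± 3150 at 10 mg/kg. Orm2, an acid glycoprotein, was 11.3-fold higher (3.49 ± 0.23) and Steap4, a metal reductase, 6.09-fold (2.60 ± 0.12).

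Of 25 acute phase genes tested, 16 rose and 4 fell, with a median of 0.51. On centred arrays 16 rose and 0 fell, so that the lower calls of F5, Hp, Fga and Fgg held on the deposited scale alone. Haptoglobin (Hp), which binds free haemoglobin, averaged 52140 ± 4271 at 200 mg/kg and 63154 ± 8481 at 10 mg/kg (-0.27 ± 0.08). Further risers were Lbp, which presents bacterial lipopolysaccharide to CD14 (1.06 ± 0.11), Serpina3n, a protease inhibitor (1.06 ± 0.10), Crp (0.75 ± 0.06), Saa1 (1.95 ± 0.17) and A2m (2.33 ± 0.33). Hamp, the iron hormone hepcidin, did not pass, at 0.16 ± 0.14.

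Chemokines were among the highest genes. Ccl2, which draws monocytes through CCR2, had 683, 1884, 725, 1678 and 2069 at 200 mg/kg, against 8.82, 18.7, 12.3, 12.4 and 8.35 at 10 mg/kg, all 5 of them below the filter (at least 7.67-fold, 5.72 ± 0.34, adjusted p = 3.54e-15). Cxcl1, a ligand of the neutrophil receptor CXCR2, had 22269, 42425, 31865, 47708 and 41138 at 200 mg/kg, against 1525, 3104, 1618, 955 and 1855 at 10 mg/kg. It was 21.3-fold higher, without overlap (4.40 ± 0.25, adjusted p = 1.22e-15). Cxcl2, its relative, was at least 12.7-fold higher (5.49 ± 0.36), and Ccl3, which acts on monocytes and T cells, at least 4-fold (4.56 ± 0.25). Cxcl9, a ligand of CXCR3 on T cells that interferon gamma induces, had 42097, 30613, 19722, 35663 and 45294 at 200 mg/kg, against 1196, 1200, 937, 1318 and 1080 at 10 mg/kg (29.3-fold, 4.86 ± 0.22). For Ccl2 and Cxcl2 mice 1 and 3 at the higher dose were the lowest of their group, and still far above the other dose.

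Of 21 chemokines 12 rose and 3 fell, and on centred arrays 14 rose and 3 fell, with a median of 1.10. The 3 that fell were Ccl24, an eosinophil attractant (-2.67 ± 0.44), Ccl6 (-1.24 ± 0.19), and Cxcl12, which holds CXCR4-bearing cells in tissue (-0.53 ± 0.12). Ccl7, Ccl4, Ccl5, Ccl9, Cxcl5, Cxcl10 and Cxcl11 rose, between 0.94 and 2.56, and Cxcl10 lost its call in 11 of 19 alternatives and Cxcl11 in 1.

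The promoter windows of the paired genes Cxcl1 and Cxcl2, neighbours on chromosome 5, are shown because both rose over 10-fold and both hold a pair of matches to the NF-kB motif, GGG and TTTCC with 2 bases of any kind between, in capitals (for Cxcl1 one of the matches is read on the other strand). They are stretches of the RefSeq GRCm38.p6 sequence between 250 bases before and 50 after the start, with 30 bases on each side of the matches, from chr5:90891126-90891213 and chr5:90903772-90903860, both on the plus strand.
Cxcl1: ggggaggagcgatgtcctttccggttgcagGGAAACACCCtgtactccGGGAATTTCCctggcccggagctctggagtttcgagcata
Cxcl2: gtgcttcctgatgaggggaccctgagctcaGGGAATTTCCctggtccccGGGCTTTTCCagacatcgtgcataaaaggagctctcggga
On either strand the motif was found in 1.63% of all 32851 promoter windows, and in 1.89% of the 27025 genes with a window. The list counts that follow are of genes. Among chemokines it was in 3 of the 6 risers with a window and in 2 of the 7 others. Among NF-kB response genes it was in 2 of the 17 risers with a window, Nfkbia and Tnfaip3, and in both others that have one, Nfkb2 and Rel. A match is a description of letters and shows no binding.

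NF-kB, the transcription factor downstream of Toll-like, IL-1 and TNF receptors, gave the fullest list. Of 25 of its response genes, 21 rose and 1 fell on both scales, with a median of 1.32. Cd14, the co-receptor for lipopolysaccharide, had 7094, 9093, 6111, 9298 and 15140 at 200 mg/kg, against 330, 336, 362, 388 and 397 at 10 mg/kg (24.6-fold, 4.57 ± 0.26, adjusted p = 6.33e-16). Ikbke, a kinase related to the IkB kinases, was 12.2-fold higher (3.59 ± 0.18), without overlap between the groups. Tlr2, a receptor for bacterial lipoproteins, was at least 8.1-fold higher (3.16 ± 0.20). The inhibitors Tnfaip3 (2.49 ± 0.29), Nfkbie (1.22 ± 0.15) and Irak3 (3.05 ± 0.36) rose, as did Bcl3 (1.98 ± 0.24) and Nfkbiz (2.08 ± 0.25), nuclear relatives of IkB that act with NF-kB at its targets, whereas the inhibitor Nfkbia stood at 0.34 ± 0.11 and lost its call in 3 of 19 alternatives. Adhesion molecules differed among themselves. Icam1, which binds leukocyte integrins, rose (2.20 ± 0.20), as did the selectins Selp (1.16 ± 0.23) and Sele (1.69 ± 0.39). Vcam1, a ligand of VLA-4 on mononuclear cells, was the member that fell, at 756 on average at 200 mg/kg and 2151 at 10 mg/kg (-1.50 ± 0.22).

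Of 24 cytokines and cytokine receptors 9 rose and 2 fell, with a median of 0.30. Il1rn, the natural antagonist of the IL-1 receptor, had 1067, 1574, 2029, 1849 and 1481 at 200 mg/kg, against 14.0, 130, 179, 54.2 and 189 at 10 mg/kg. All mice at the higher dose were above all at the lower (at least 9.07-fold, 3.99 ± 0.33). Il1b, the cytokine it opposes, rose at least 3.35-fold (1.73 ± 0.18), and the decoy receptor Il1r2 at least 2.26-fold (1.93 ± 0.27). Il33, an alarmin (1.54 ± 0.28), Csf1, the ligand of CSF1R (0.93 ± 0.17), and Tnfrsf12a, the TWEAK receptor (1.36 ± 0.24), rose as well. Il18 (-0.84 ± 0.13) and Il15 (-1.46 ± 0.31) fell. Tnf averaged 123 at 200 mg/kg and 97.4 at 10 mg/kg, under the filter, and Il1a, Lif and Csf3 did not pass either. Acod1, which makes itaconate in activated macrophages, was at least 2.58-fold higher (4.38 ± 0.23).

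Markers of blood-borne myeloid cells were higher in part. S100a8 and S100a9 form calprotectin, a main cytosolic protein of neutrophils. S100a8 had 5357, 8673, 6998, 10092 and 12483 at 200 mg/kg, against 626, 379, 487, 812 and 778 at 10 mg/kg (14.1-fold, 3.79 ± 0.23, adjusted p = 6.42e-15), and S100a9 was 14.6-fold higher (3.83 ± 0.25). The lowest mouse at the higher dose was mouse 1 for both, and the highest was mouse 5. Of 19 neutrophil markers 11 rose and 0 fell, with a median of 1.37. Clec4d, a lectin receptor of myeloid cells, rose at least 6.34-fold (4.79 ± 0.28), and the collagenase Mmp8 (2.62 ± 0.36) and the G-CSF receptor Csf3r (1.74 ± 0.41) rose. The granule genes Ngp, Ltf and Camp, made in the bone marrow at earlier stages, did not pass, at 0.34 to 0.69. Of 14 monocyte markers 8 rose and 2 fell, and 9 rose and 2 fell on centred arrays, with a median of 0.66. Chil3, a chitinase-like protein, was at least 4.03-fold higher (4.71 ± 0.42), F13a1, the A subunit of factor XIII, at least 4.67-fold (2.68 ± 0.16). Treml4 and Ms4a6c (-0.60 ± 0.20) fell, the second without a call in 3 of 19 alternatives. Ccr2, named as a defining monocyte marker, rose by 0.42 to 0.71 over the alternatives and lost its call in 6 of 18. Retnlg and Ly6c2, named as defining for neutrophils and monocytes, were not among the list members that passed. Hcar2, a receptor of neutrophils, macrophages and fat cells (3.97 ± 0.33), and Olfm4, a granule protein of some neutrophils (4.04 ± 0.38), were also among the 15 highest genes. Of 8 T and NK cell markers none passed in either direction, and of 8 B cell markers Bank1 (-2.20 ± 0.34) and Cd74 (-0.84 ± 0.17) fell. The part of these cells in the rises of the gene lists above was not tested.

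Of the interferon response genes, Gbp2, a guanylate-binding GTPase of antimicrobial defence that interferon gamma induces, had 5432, 6198, 3472, 6696 and 10522 at 200 mg/kg, against 233, 442, 368, 251 and 361 at 10 mg/kg (18.9-fold, 4.19 ± 0.22, adjusted p = 2.15e-16). Its relatives Gbp6 (3.05 ± 0.20), Gbp3 (2.85 ± 0.24) and Gbp7 (2.21 ± 0.17) rose too, as did Ifi47, an immunity-related GTPase, 5.95-fold (2.57 ± 0.16). The immunoproteasome subunit Psmb8 rose by less (0.61 ± 0.11). Ifit1, an antiviral protein that type I interferon induces, had 770, 599, 721, 535 and 940 at 200 mg/kg, against 536, 799, 845, 780 and 661 at 10 mg/kg. The doses overlapped in full (-0.03 ± 0.21, adjusted p = 0.935), and Ifit3, Rsad2, Mx1, Irf7 and the Oas genes did not pass. Of 29 genes of the list, 9 rose and 0 fell, against 12 and 0 on centred arrays, with a median of 0.41. Whether the interferon gamma genes as a group differed from the type I genes was not tested.

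The interferon-stimulated response element, searched as GAAA followed after 2 bases by GAAA and shown in capitals, stood in the windows of Gbp2 and Gbp7, which rose, and of Ifit1, which did not pass, and the 3 are shown for that contrast. In all 3 the match is read on the other strand. The stretches are chr3:142620574-142620643, chr3:142530253-142530322 and chr19:34640755-34640843 of GRCm38.p6, on the plus strand.
Gbp2: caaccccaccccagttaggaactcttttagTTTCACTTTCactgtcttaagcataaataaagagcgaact
Gbp7: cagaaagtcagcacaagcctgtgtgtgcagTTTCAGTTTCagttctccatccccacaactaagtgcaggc
Ifit1: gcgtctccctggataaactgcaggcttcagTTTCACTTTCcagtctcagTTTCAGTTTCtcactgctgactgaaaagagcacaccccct
On either strand the motif was found in 3.44% of all windows and in 3.99% of all genes with a window. It was in 5 of the 8 risers of the list with a window and in 6 of the 15 others, so it was present in genes that rose and in genes that did not pass.

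**Figure D3:**
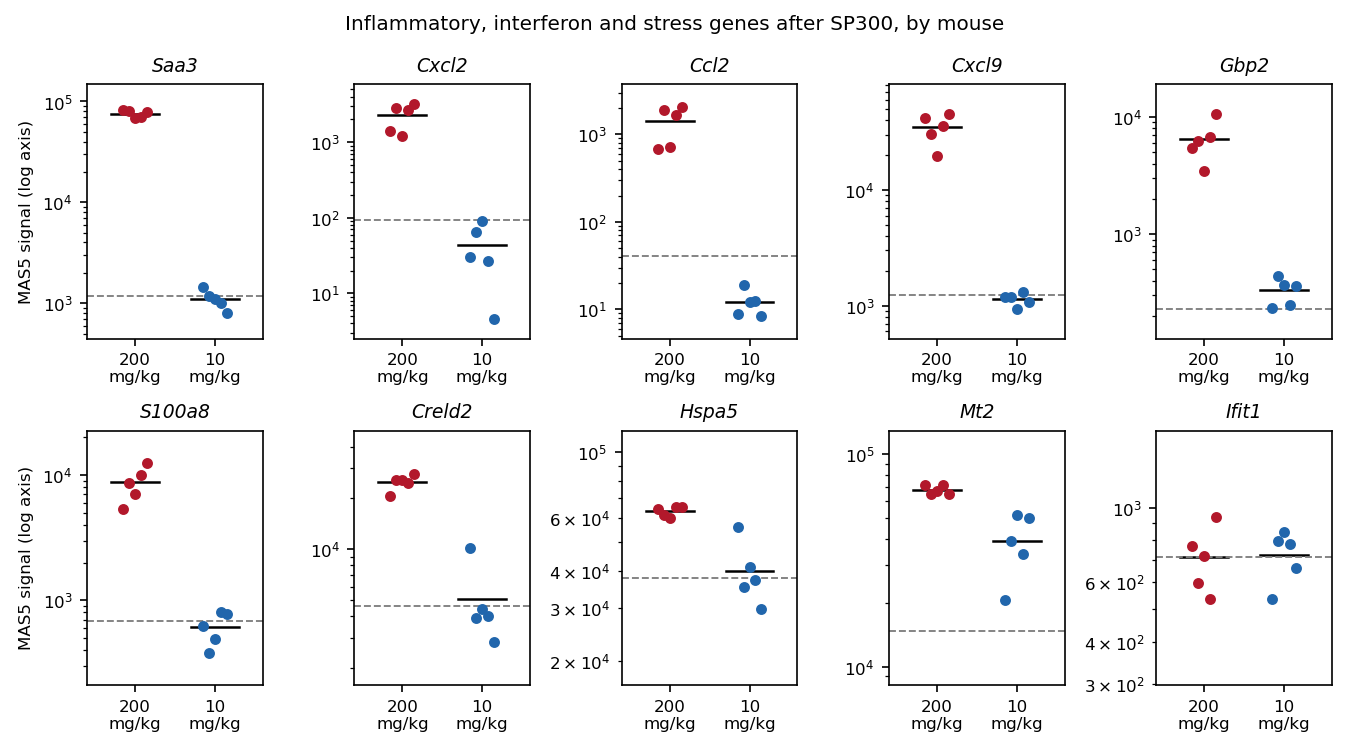
MAS5 signals (log axis) of 10 genes in each liver, 200 mg/kg in red on the left and 10 mg/kg in blue on the right, with black bars at the group means and a dashed line at the control mean. Of the genes shown, only Ifit1 overlaps between the doses, and for Mt2 the mean at 10 mg/kg (39089) is above the control mean (14757).

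Genes downstream of IL-6 and STAT3 rose in part. Socs3, the feedback inhibitor of this pathway, had 3242, 5674, 6438, 8836 and 7105 at 200 mg/kg, against 1414, 1836, 2199, 1552 and 1803 at 10 mg/kg (3.42-fold, 1.77 ± 0.31, adjusted p = 4.21e-05). Stat3 itself was at 0.68 ± 0.11 and its co-receptor Il6st at 0.64 ± 0.19, without a call when its probe sets were averaged (0.31, adjusted p = 0.0714 in limma). Of 16 genes 5 rose and 3 fell, and on centred arrays 7 rose and 0 fell. Immediate early genes, which growth factor and stress signals switch on without new protein, rose in 17 of 33 cases and fell in 2 (17 and 1 on centred arrays), with a median of 0.84. Egr1, a zinc finger factor, was 4.91-fold higher, without overlap (2.26 ± 0.27). The AP-1 members Junb (1.39 ± 0.22), Jun (1.45 ± 0.27), Fos (1.86 ± 0.39) and Atf3 (1.82 ± 0.40) rose too. The 2 that fell were Nr4a2 (-0.97 ± 0.31), whose call was lost in 2 of 18 alternatives, and Myc (-1.07 ± 0.37), lost in 6 of 19, centred arrays among them.

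The unfolded protein response, by which cells expand the endoplasmic reticulum (ER) when secretory load is high, was higher at 200 mg/kg in a part of its genes. Creld2, an ER chaperone, had 20351, 25534, 25565, 24379 and 27456 at 200 mg/kg, against 10132, 3919, 4452, 4033 and 2843 at 10 mg/kg (5.35-fold, 2.42 ± 0.27, adjusted p = 2.07e-08). Mouse 1 at the lower dose stood well above its group, as it did for Syvn1, a ubiquitin ligase that disposes of misfolded proteins (3.38-fold, 1.76 ± 0.18), for Manf (1.36 ± 0.19) and for Hspa5. Hspa5, the main ER chaperone BiP, had 64693, 61471, 60343, 65389 and 65356 at 200 mg/kg, against 56214, 35299, 41348, 37368 and 29874 at 10 mg/kg. The groups did not overlap (1.62-fold, 0.70 ± 0.11, adjusted p = 5.47e-06). Of 30 genes 16 rose and 0 fell, and 19 and 0 on centred arrays, with a median of 0.55. Dnajb9 (1.33 ± 0.10), Sdf2l1 (1.32 ± 0.26) and Hyou1 (1.10 ± 0.21) were further chaperone genes that rose. The branch factors were less clear. Ddit3, the factor CHOP, rose (0.82 ± 0.21), a call lost when its probe sets were averaged (adjusted p = 0.0991 in limma), whereas Atf4, Xbp1, Chac1, Trib3 and Sesn2 did not pass.

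The ER stress response element was searched as CCAAT followed after 9 bases by CCACG on either strand. It is rare, being found in 39 of the 32851 windows (0.119%) and in 37 of the 27025 genes (0.137%). It was in 5 of the 14 risers of the list with a window, Creld2, Dnajc3, Hsp90b1, Hspa5 and Syvn1, and in 3 of the 14 others, Calr, Canx and Pdia6. The windows of 3 risers are shown with that of Calr, an ER lectin chaperone that did not pass (0.18 ± 0.11), to set like elements beside unlike responses. Capitals mark the element, which is read on the other strand in Creld2 and Calr. The stretches are chr15:88819490-88819568, chr19:6046502-6046575 and chr2:34771995-34772073 on the plus strand, and chr8:84847045-84847123 on the minus strand, of GRCm38.p6.
Creld2: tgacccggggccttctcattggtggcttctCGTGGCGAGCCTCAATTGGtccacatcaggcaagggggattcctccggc
Syvn1: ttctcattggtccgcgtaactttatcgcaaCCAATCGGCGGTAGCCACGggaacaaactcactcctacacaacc
Hspa5: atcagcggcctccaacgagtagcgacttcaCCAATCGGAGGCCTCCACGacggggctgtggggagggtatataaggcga
Calr: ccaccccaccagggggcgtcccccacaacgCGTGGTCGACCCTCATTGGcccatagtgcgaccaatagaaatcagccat

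Other stress lists held calls in both directions. Of 16 heat shock genes 3 rose and 2 fell (4 and 1 on centred arrays), with Bag3, a co-chaperone, at 1.19 ± 0.19. Of 18 targets of the antioxidant factor NRF2, 3 rose and 4 fell (3 and 3 on centred arrays). Over all genes 9.38% rose and 22.3% fell, and 14% and 14.6% on centred arrays. The lower calls of NRF2 targets were near these shares, and those of heat shock genes below them. Gclc, the catalytic subunit of the rate-limiting enzyme of glutathione synthesis, had 6666, 6525, 8668, 7038 and 5074 at 200 mg/kg, against 18308, 22822, 17376, 16466 and 14637 at 10 mg/kg, without overlap (2.65-fold lower, -1.40 ± 0.19, adjusted p = 4.48e-07). Its partner Gclm also fell (-0.45 ± 0.08), while Srxn1, a sulfiredoxin (0.73 ± 0.13), the thioredoxin reductase Txnrd1 (0.44 ± 0.09) and Slc7a11, the cystine importer (1.58 ± 0.34), rose, Txnrd1 without a call when its probe sets were averaged (adjusted p = 0.147 in limma). Nqo1 and Hmox1, the genes most used as NRF2 readouts, did not pass. The zinc-binding metallothioneins were higher at 200 mg/kg. Mt2 had 71073, 64643, 66649, 71170 and 64958 at 200 mg/kg, against 20548, 39052, 51754, 33965 and 50124 at 10 mg/kg (0.86 ± 0.28, adjusted p = 0.0153), and Mt1 stood at 0.67 ± 0.23. Without mouse 1 at the lower dose, the lowest of its group, the call of Mt2 was lost (adjusted p = 0.074), and that of Mt1 was lost in 3 of 19 alternatives. Zinc importers of hepatocytes differed, with Slc39a14 higher (0.90 ± 0.12) and Slc39a8 lower (-1.0 ± 0.12), and the exporter Slc30a1 was lower (-1.13 ± 0.12). A second probe set did not pass for Slc39a8 (-0.62) or for Slc30a1 (-0.30), and neither did 1 of the other probe sets of Slc39a14.

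Among p53 targets and cell death genes, 7 of 22 rose and 1 fell, against 9.38% and 22.3% of all genes, with a median of 0.21. Mlkl, which executes necroptosis (1.09 ± 0.15), the BH3-only genes Bid (0.94 ± 0.12) and Pmaip1 (1.55 ± 0.41), the death receptor Fas (0.95 ± 0.17), and Gsdmd and Casp4 of pyroptosis (0.51 ± 0.11 and 0.78 ± 0.21) rose. Casp1 fell (-1.35 ± 0.32). The p53 target Btg2 rose as well (1.17) and lost its call in 0 of 19 alternatives. Other p53 targets, Mdm2, Ccng1 and Phlda3, did not pass, and neither did Cdkn1a, at 8076 on average at 200 mg/kg and 4184 at 10 mg/kg.

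Hepatocyte metabolism fell by smaller steps over many genes. Of 18 hepatocyte markers 2 rose and 8 fell, against 9.38% and 22.3% of all genes. On centred arrays 2 rose and 2 fell, against 14% and 14.6%, with a median of -0.08. Hsd3b5, a steroid reductase that male growth hormone pulses maintain, was the exception in size and the only hepatocyte gene of the 15 lowest. It had 3497, 2628, 4097, 3435 and 1719 at 200 mg/kg, against 24971, 32470, 30174, 30158 and 20095 at 10 mg/kg (9.22-fold lower, -3.20 ± 0.44, adjusted p = 7.3e-07). Growth hormone acts through STAT5 to hold up the IGF system, in which Igfbp3, the main carrier of IGF1 in plasma (-2.25 ± 0.23), Igfals, its partner in the circulating complex (-1.08 ± 0.14), Ghr, the hormone's receptor (-0.51 ± 0.09), and Igf1 (-0.29 ± 0.05) were lower. Under quantile normalization the call of Igf1 was lost (-0.11, adjusted p = 0.124 in limma). Of 21 genes of this axis 9 fell and 1 rose, and 5 fell and 2 rose on centred arrays. The riser was Cish, a feedback inhibitor and STAT5 target (0.99 ± 0.26). Which liver cells carried the Igfbp3 transcript was not tested.

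Genes of glucose output and of the fasting response fell in 13 of 22 cases with 0 risers (10 fell and 1 rose on centred arrays, median -0.42). Irs1, an adaptor of the insulin receptor, had 676, 419, 468, 437 and 466 at 200 mg/kg, against 3012, 1918, 2707, 1947 and 1770 at 10 mg/kg (4.57-fold lower, -2.16 ± 0.16, adjusted p = 6.38e-13). Ppargc1a, a coactivator of gluconeogenic and mitochondrial genes, was 3.7-fold lower (-1.86 ± 0.26), with mouse 1 at the higher dose above the rest of its group. Tsc22d3, a glucocorticoid target (-1.26 ± 0.22), the glucose transporter Slc2a2 (-0.80 ± 0.18), Gys2, liver glycogen synthase (-0.53 ± 0.13), and Pygl, glycogen phosphorylase (-0.52 ± 0.10), also fell. The enzymes G6pc (-0.75 ± 0.25) and Pck1 (-0.32 ± 0.12) passed on the deposited scale alone.

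Bile acid genes fell in 11 of 22 cases and rose in 1 (9 and 1 centred, median -0.36). Slc10a1, the sodium-coupled bile acid importer, averaged 39583 ± 2211 at 200 mg/kg and 56842 ± 4704 at 10 mg/kg (1.43-fold lower, adjusted p = 2.95e-07), without overlap. Abcb11, the bile salt export pump (-0.61 ± 0.11), Abcg8, a cholesterol exporter (-1.07 ± 0.15), and Klb, the co-receptor for FGF15 (-1.22 ± 0.17), fell with it. Cyp7a1, the rate-limiting enzyme of bile acid synthesis, varied more than 5-fold between mice at 10 mg/kg and did not pass (0.22 ± 0.61).

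Among drug metabolism genes, 13 of 25 members of a list of P450 enzymes and their regulators fell and 0 rose (11 and 0 centred, median -0.16), as did 16 of 26 conjugating enzymes (9 centred, median -0.28). The lowest of this list were regulators, the dioxin receptor Ahr (-1.49 ± 0.18) and the xenobiotic receptor Nr1i3 (-1.15 ± 0.17), and the enzyme Cyp2c54 (-0.88 ± 0.17). Cyp3a11 and Cyp2e1 did not pass. Tpmt (-0.64 ± 0.11), Sult1b1 (-0.78 ± 0.18) and Ephx1 (-0.49 ± 0.12) were examples of phase II.

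Of 25 genes of the urea cycle and amino acid breakdown 15 fell and 0 rose (11 and 0 centred), led by Hal, the first enzyme of histidine breakdown, at 2.62-fold lower (-1.39 ± 0.17). Cps1 and Ass1 of the urea cycle did not pass. Of 25 genes of fatty acid oxidation 12 fell and 1 rose, and 9 fell and 2 rose on centred arrays. Acaa2 (-0.35 ± 0.06) and Cpt2 (-0.45 ± 0.08) fell, though a second probe set of Cpt2 did not pass. The riser was Vnn1, a pantetheinase (1.59 ± 0.33). Of 26 genes of cholesterol and fatty acid synthesis 4 fell and 1 rose, among them Acaca (-0.68 ± 0.18) and Acly (-0.72 ± 0.23) as those that fell. The call of Acly was lost with the mean of its probe sets (-0.29) and without mouse 2 at 200 mg/kg, with an adjusted p of up to 0.176 in limma. Of 17 clock genes 4 fell and 0 rose, and 2 and 0 on centred arrays, with Per1 (-0.70 ± 0.17) among the 4. Over all genes 22.3% fell and 9.38% rose, and 14.6% and 14% on centred arrays. The lower calls of the clock list and of cholesterol and fatty acid synthesis were near or below these shares.

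Counts for other secreted proteins of the hepatocyte depended on the scale. Of 26 coagulation genes 12 fell and 4 rose, against 22.3% and 9.38% of all genes, but 5 fell and 5 rose on centred arrays, against 14.6% and 14% of all genes. Fgl1, a liver-secreted fibrinogen-like protein, rose (0.82 ± 0.15), as did Plaur, the urokinase receptor (0.81 ± 0.14), while Serpind1, heparin cofactor II (-0.68 ± 0.10), and Proc, protein C (-0.47 ± 0.07), fell. Of 22 complement genes other than C1q, 10 fell and 1 rose, with Cfb, factor B, as the riser (0.48 ± 0.08), and on centred arrays 4 fell and 1 rose. Of 23 genes of iron handling 8 fell and 2 rose, and 6 fell and 3 rose on centred arrays. Slc11a2, the divalent metal importer DMT1, rose 3.75-fold without overlap (1.89 ± 0.14), and Hjv, the BMP co-receptor for hepcidin control, fell (-0.93 ± 0.15).

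Of 25 genes of the extracellular matrix and its proteases 9 rose and 3 fell, and 10 rose and 2 fell on centred arrays, with a median of 0.39. Timp1, an inhibitor of matrix proteases, had 623, 887, 493, 727 and 1354 at 200 mg/kg, against 44.8, 41.3, 113, 138 and 106 at 10 mg/kg (at least 4.66-fold, 3.07 ± 0.29). Col4a1, a basement membrane collagen, rose (1.49 ± 0.15), as did Tnc (2.51 ± 0.36) and Adamts4 (2.05 ± 0.38). Fibrillar collagens Col1a1, Col1a2 and Col3a1 did not pass. Of 15 stellate cell and fibroblast markers 3 rose and 6 fell, against 9.38% and 22.3% of all genes. On centred arrays 3 rose and 4 fell, against 14% and 14.6%, with a median of -0.22. Lrat, which stores retinol (-0.92 ± 0.26), Colec11 (-1.58 ± 0.24) and Reln (-0.67 ± 0.11) fell, and Acta2, smooth muscle actin, rose (0.75 ± 0.20). Of 19 proliferation genes, 1 fell (Pcna, -0.48 ± 0.11) and 0 rose. Of 30 ribosome biogenesis factors 6 rose and 0 fell, and 9 and 0 on centred arrays, with Ddx21 at 0.55 ± 0.14.

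**Figure D4:**
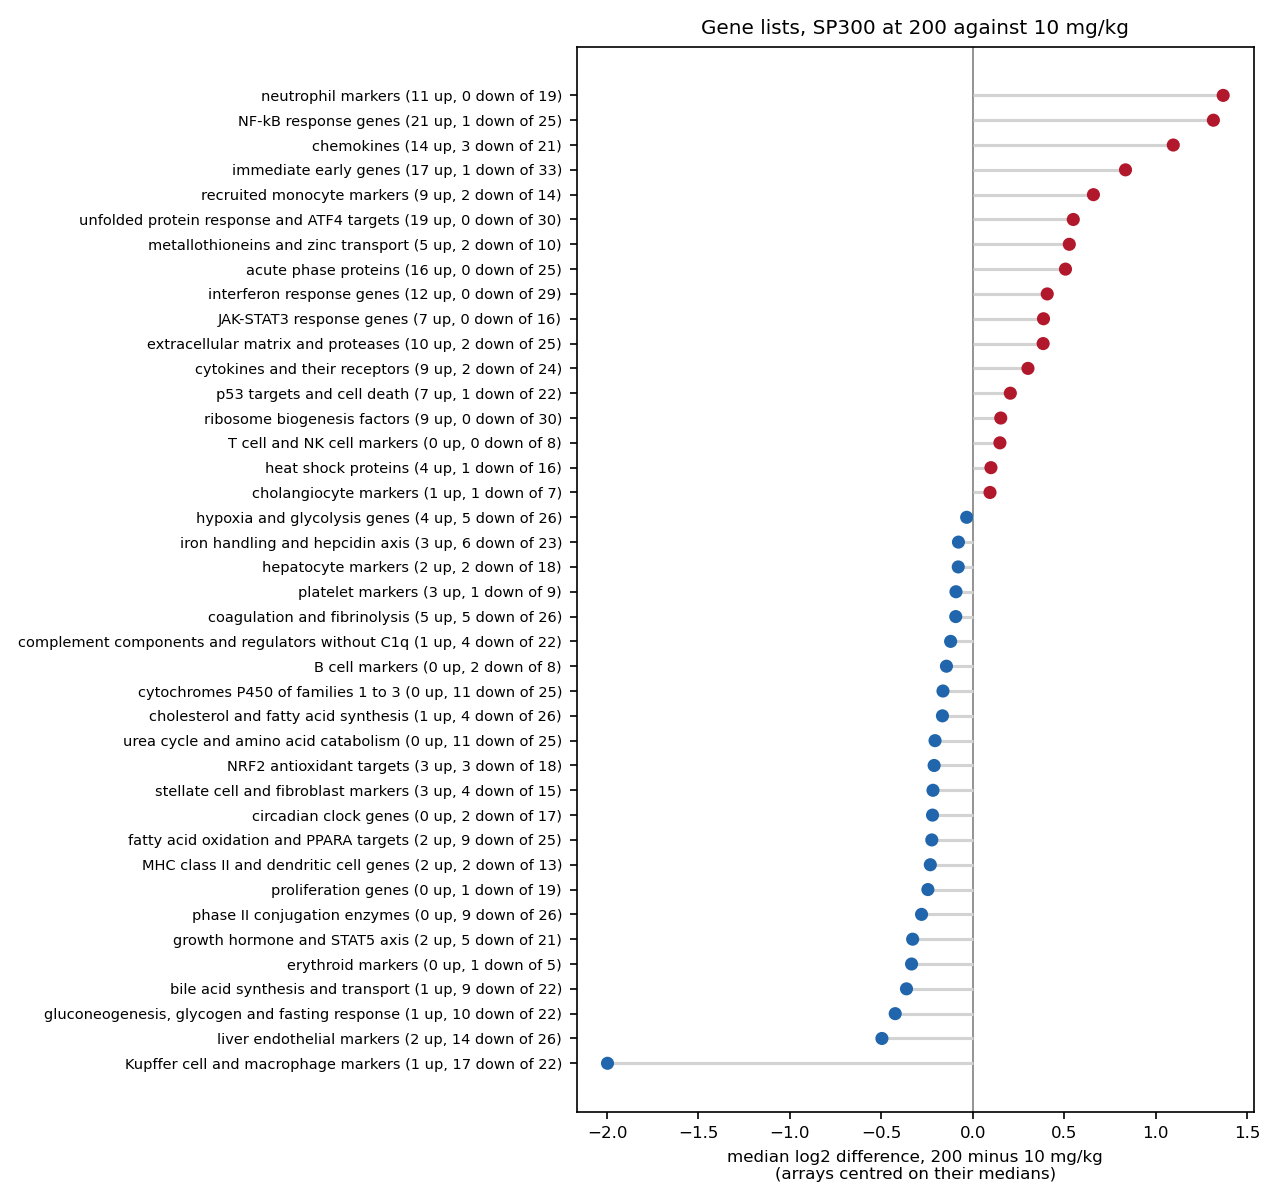
Each point is the median log2 difference, 200 minus 10 mg/kg, of the tested members of 1 gene list on median-centred arrays, red above 0 and blue below, with the number of members higher (up) and lower (down) on that scale. Neutrophil markers (1.37) and NF-kB response genes (1.32) are at the top and Kupffer cell and macrophage markers (-2.0) at the bottom, against -0.01 for all genes.

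The control livers place both doses. Against control, 3879 genes (30.6%) differed at 200 mg/kg, with 1595 higher (12.6%) and 2284 lower (18%), and 148 genes (1.17%) at 10 mg/kg, with 117 higher (0.923%) and 31 lower (0.245%). On centred arrays the splits were 1953 higher and 1810 lower at 200 mg/kg, and 70 higher and 47 lower at 10 mg/kg. Both comparisons use the same control mice, and each shares its treated mice with the comparison of doses, so their overlap with it is no result. Control means were 3784 ± 421 for Clec4f, 2332 ± 219 for C1qc, 10556 ± 1200 for Csf1r, 1166 ± 278 for Saa3 and 1184 ± 532 for Cxcl1. At 10 mg/kg none of these genes differed from control, with adjusted p of 0.87 to 0.988 for Clec4f, C1qc, Csf1r and Saa3 and 0.255 for Cxcl1. A p that misses the threshold does not show that the groups were alike.

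Genes of the lists above that were higher at 10 mg/kg than in control livers were few in number, against 0.923% of all genes. They were 3 of 30 for the unfolded protein response, 2 of 25 for the acute phase, 2 of 24 cytokines and 1 of 25 for NF-kB. Further lists had 3 of 22 for glucose output and fasting, 2 of 16 for STAT3, 2 of 10 for metallothioneins and zinc transport, and 2 of 23 for iron handling. Lower genes numbered 3 in the STAT3 list and 0 in the other lists named so far, against 0.245% of all genes. The growth hormone and STAT5 list had 3 of 21 lower and 1 higher, and immediate early genes 3 of 33 lower and 0 higher. Kupffer cell, neutrophil, monocyte, chemokine, fatty acid oxidation and phase II lists each had 1 higher gene and 0 lower. Cish, the STAT5 target, had 739, 426, 743, 533 and 676 at 10 mg/kg, against 2431, 3227, 3501, 4698 and 3236 in control livers (-2.43 ± 0.26, adjusted p = 5.26e-07), and Socs2, another, was lower too (-1.76 ± 0.46, adjusted p = 0.044). Onecut1, a hepatocyte transcription factor (-2.32 ± 0.55), Slc25a30 (-1.96 ± 0.36) and Gadd45g (-1.75 ± 0.36) made up the 5 lowest. Bcl6, a repressor that STAT5 holds down, was higher (1.79 ± 0.31; adjusted p = 0.00149 in limma), as were Rgs16, a regulator of G protein signalling (2.38 ± 0.52), Arrdc3 (2.07 ± 0.44), Scara5, a scavenger receptor for ferritin (1.67 ± 0.33), and Mt2 (1.70 ± 0.28). Mt2 spread widely, with 20548 to 51754 at 10 mg/kg, against 5867 to 35662 in control livers.

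These genes were not all carried further at 200 mg/kg. Cish averaged 1278 ± 416 at 200 mg/kg and 623 ± 139 at 10 mg/kg. Rgs16 had 409, 594, 281, 880 and 312 at 200 mg/kg, against 4131, 4768, 6312, 1295 and 4186 at 10 mg/kg (8.15-fold lower, -2.99 ± 0.52, adjusted p = 3.3e-05), and its control mean was 859 ± 580. Arrdc3 fell too (-1.52 ± 0.44), whereas Mt2 was higher at the higher dose. With only the compared groups in the fit, 45 genes differed between 10 mg/kg and control (33 higher and 12 lower), and without mouse 3 at 10 mg/kg 72 did (48 and 24). Without control mouse 2, 94 genes differed (73 higher and 21 lower). Rgs16, Mt2, Scara5 and Socs2 did not pass in the fit of only those groups, and a mean over the probe sets of Scara5 stood at 0.38. The calls of Rgs16, Onecut1 and Socs2 were also lost when single mice were left out, with adjusted p of up to 0.0626 for Rgs16, 0.0892 for Onecut1 and 0.158 for Socs2. Socs2 also lost its call with the replicate block (0.061) and with no filter (0.0626).

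Whether SP300 and SP70 differ in their step between doses was tested as the difference of the steps, SP300 (200 minus 10 mg/kg) minus SP70 (40 minus 10 mg/kg), which share no mice. The upper doses are unequal, so that the contrast is between the doses the study chose and not between particles at a matched dose. The step of SP70 alone was past the threshold in 3865 genes (30.5%), with 660 higher (5.21%) and 3205 lower (25.3%). The steps differed in 634 genes (5%), with a positive signed difference in 467 (3.68%) and a negative one in 167 (1.32%). A step is called larger or smaller for SP300 by that sign alone. A gene that fell after SP70 can therefore count as larger for SP300 without a rise after SP300.

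The 5 genes with the largest positive difference of steps were inflammatory. Saa3 differed by 5.61 ± 0.17 (adjusted p = 2.7e-23 in limma), with a step of 6.10 ± 0.12 for SP300 and 0.49 ± 0.12 for SP70. Its mean was 75840 ± 6107 after SP300 at 200 mg/kg and 1110 ± 235 at 10 mg/kg, and 85668 ± 4393 after SP70 at 40 mg/kg and 61768 ± 9602 at 10 mg/kg. Saa3 was therefore already high in the SP70 livers at the dose from which their step was taken. Clec4d (5.30 ± 0.40), Ccl3 (5.13 ± 0.36), Chil3 (5.12 ± 0.60) and Acod1 (4.89 ± 0.33) followed, and for these 4, unlike Saa3, the mean after SP70 at 40 mg/kg was below that at 10 mg/kg. By list, NF-kB response genes had 14 of 25 with a larger step for SP300 and 0 with a smaller one, acute phase genes 11 of 25 and 0, chemokines 10 of 21 and 0, and interferon response genes 13 of 29 and 0. In that order the median SP300 steps were 1.22, 0.41, 1.00 and 0.31 on the deposited scale. The median SP70 steps were 0.04, -0.03, -0.03 and -0.62. Of the 29 interferon genes only 9 were higher between the SP300 doses, so not all of the 13 passed as risers after SP300.

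The 5 genes with the largest negative difference included targets of hypoxia-inducible factor. Ankrd37 differed by -5.50 ± 0.74 (adjusted p = 3.1e-06), with a mean of 54.3 ± 45.5 after SP300 at 200 mg/kg and 91.4 ± 31.5 at 10 mg/kg, and 1464 ± 765 after SP70 at 40 mg/kg and 62.0 ± 61.5 at 10 mg/kg. Its SP300 step did not pass (-0.88 ± 0.53). Adm, the vasodilator adrenomedullin (-3.69 ± 0.58), and Ndrg1 (-3.75 ± 0.39) were likewise low after both doses of SP300, and Ndrg1 had an SP300 step of -1.10 ± 0.27. Sned1 (-3.42 ± 0.58) and Rnf186 (-3.12 ± 0.64) completed the 5. Of 26 hypoxia and glycolysis genes, 13 had a smaller step for SP300 and 0 a larger one, with Vegfa at -1.96 ± 0.23 and Slc2a1, a glucose transporter, at -1.83 ± 0.23. For SP300 alone, 4 of these 26 genes rose and 6 fell, and 4 rose and 5 fell on centred arrays, with a median of -0.03.

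Kupffer cell and macrophage markers had 7 of 22 with a lower difference of steps and 2 with a higher one. Clec4f differed by -2.34 ± 0.67 (adjusted p = 0.033), with 45.6 ± 47.0 after SP300 at 200 mg/kg and 3714 ± 493 at 10 mg/kg, and 62.0 ± 58.7 after SP70 at 40 mg/kg and 941 ± 371 at 10 mg/kg. Csf1r differed by -1.25 ± 0.18, and Lyz2 by 1.73 ± 0.25. Of 26 endothelial markers 2 had a higher difference, Eng (0.77 ± 0.19) and Stab1 (0.66 ± 0.20), and 0 a lower one.

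**Figure D5:**
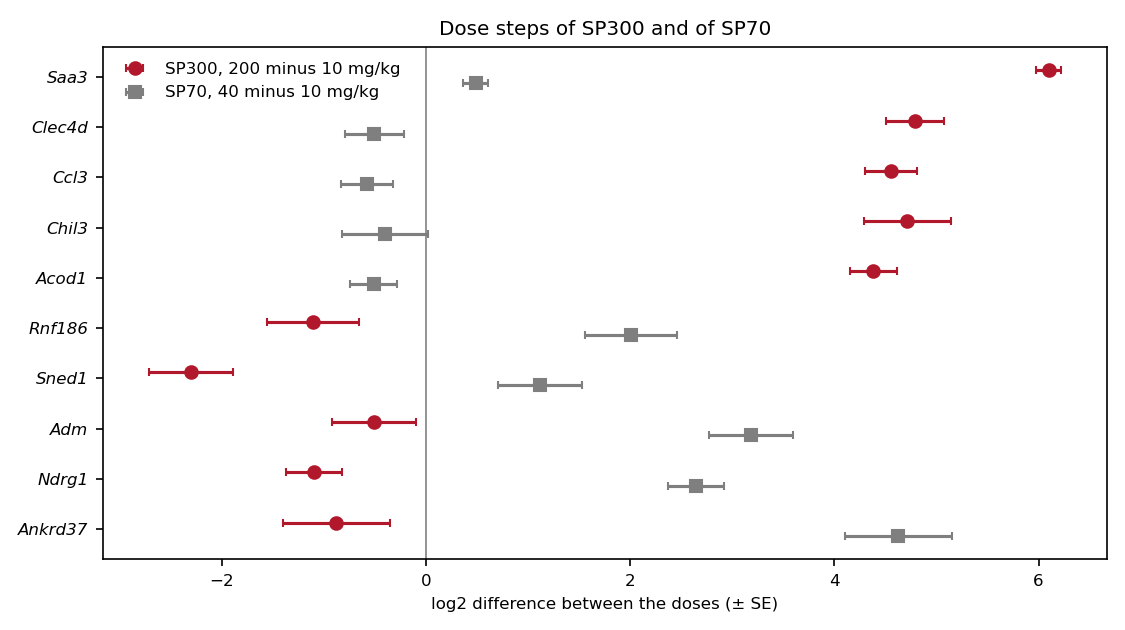
Log2 differences between doses (points, bars ± SE) for the 5 genes with the highest and the 5 with the lowest difference of steps, SP300 (200 minus 10 mg/kg) as red circles and SP70 (40 minus 10 mg/kg) as grey squares. For Saa3 to Acod1 the SP300 steps lie at 4.38 to 6.10 and the SP70 steps at -0.57 to 0.49, and for Rnf186 to Ankrd37 the SP300 steps are negative and the SP70 steps positive.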

How the data were processed

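Whole-genome arrays measured RNA in 35 mouse livers, 10 of which enter the comparison of SP300 doses. The values are probe set intensities deposited by the authors, made with MAS5 per the submitters' processing notes. No source used here names the scaling target, and no depth applies to arrays, whose number limits the precision. Intensities were taken as log2(signal + 12.5), the constant being the 10th percentile of all values. Probe sets were kept if 5 or more arrays exceeded 165, the overall median, with 1 probe set per gene (the highest mean log2), named from the platform annotation and a RefSeq table. Of 45101 probe sets 34945 had 1 gene, 932 several and 9160 none. limma 3.58.1 in R 4.3.3 was fitted to all 35 arrays with 1 mean for each group, trended variance and two-sided tests, adjusted by Benjamini-Hochberg over 12678 genes. On simulated data 75% of genes changed by 1 and 96% of those changed by 2 on the log2 scale were recovered in the comparison of doses. There the genes were independent, 200 of 12678 were changed, and 8 unchanged genes were called. In the data 31.7% of genes passed, so these rates describe the simulated setting only. The labels name 5 mice a group, and nothing gives their handling batches.

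Named genes were the 15 highest and 15 lowest without overlap between the doses, up to 3 members of each of 40 lists by adjusted p, and the 5 highest and 5 lowest of the other comparisons. Further list members are named where their list is described. The members and lists were chosen with earlier results of these data known. Alternatives changed the pseudocount, filter, scaling, probe set rule, arrays in the fit and replicate block, and left out single mice. Replicate numbers did not pair mice: deviations of same-numbered mice correlated at -0.000692 on average over 105 pairs.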

Additional observations from a re-analysis of the deposited data

Results flagged for a closer look

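Among the signals of named genes in 276 groups of 5 mice, 27 had a highest or lowest mouse far from the others by Dixon's test. The test was run on signals without the log. It marks about 1 of 20 groups where values are normally distributed, which was not tested for these signals. Mouse 1 at 10 mg/kg accounted for 7 of these and mouse 2 for 6.

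At 200 mg/kg, mouse 1 was the highest for Serpina1c (82335, against 69378 in the nearest mouse), Irs1 (676 and 468), Ppargc1a (833 and 437) and Sned1 (97.8 and 22.5). Mouse 2 was the highest for Clec4f (127 and 43.5) and the lowest for Cd5l (56.8 and 135). Mouse 4 was the highest for Reln (6642 and 5540) and Ugt2b34 (28634 and 26302), and mouse 5 for Car2 (1121 and 949.9).

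At 10 mg/kg, mouse 1 was the highest for Creld2 (10132, against 4452 in the nearest mouse), Syvn1 (9197 and 5232), Egr1 (665 and 424), Scara5 (5828 and 2988), Clec4d (110.2 and 19.8) and Olfm4 (53.03 and 11.3), and the lowest for C1qa (2942 and 4514). Mouse 2 was the highest for Clec4f (4590.4 and 3562), Pkhd1 (540.3 and 416), Slc4a1 (523 and 258), Car2 (2079 and 1312), Mvd (654 and 459.8) and Pcna (8567 and 5880.4). Mouse 4 was the highest for Slc25a30 (3322 and 1392) and Socs2 (7268 and 2163). Mouse 5 was the highest for Lcn2 (11723 and 5581) and Ahr (5850.1 and 4747), and the lowest for Tlr2 (72.8 and 154.6).

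The step between doses differed between SP300 and SP70 by limma's test of the difference, on the log2 scale, by 5.61 for Saa3, 5.30 for Clec4d, 5.13 for Ccl3, 5.12 for Chil3 and 4.89 for Acod1, and by -5.50 for Ankrd37, -3.75 for Ndrg1, -3.69 for Adm, -3.42 for Sned1 and -3.12 for Rnf186.

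Outside the gene tests, 697 of 4204 probe sets with no gene or several genes differed between 200 and 10 mg/kg, with 165 higher and 532 lower.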

How the results depend on the processing

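Over the alternatives the comparison of 200 with 10 mg/kg called 3608 to 4052 genes, and 3501 to 3954 with 1 mouse left out. The genes called were not all the same. Of the 4015 genes of the main fit, 3036 were also called on centred arrays and 3047 under quantile normalization. For 200 mg/kg against control, leaving out 1 mouse gave 3225 to 3770 genes, and for the difference of steps 462 to 694. For 10 mg/kg against control it gave 72 to 164 genes, with 94 without control mouse 2 and 72 without mouse 3 at 10 mg/kg. A fit of only the groups compared called 45 there, and the cause was not tested. Centring or quantile normalization took the share of higher calls between the doses to 49.1% or 49.4%, against 29.6%. For 10 mg/kg against control the share was 59.8% or 56.6%, against 79.1%. With the replicate block, 3954 genes differed between the doses, 3826 and 135 against control at 200 and 10 mg/kg, and 620 in the steps. The numbers do not pair the mice. Of the genes named by rule, 110 of 124 kept their call between the doses under all alternatives run, 5 of 10 against control at 10 mg/kg, and 10 of 10 in the steps, and 0 reversed. Of 59 such genes with several probe sets, 21 had another that did not pass and 0 one that passed the other way. Low signals, where MAS5 gives no detection call here, limit the folds given as bounds.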
